A study of Homo sapiens with 6 samples.

Results

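The IFIT genes (interferon-induced proteins with tetratricopeptide repeats) were taken by name, as the 4 genes IFIT1, IFIT2, IFIT3 and IFIT5, and all 4 were found among the 11079 genes measured. Their RNA was measured by RNA-seq in T24, an established human bladder cancer cell line. The unit was not named and was taken to be FPKM. This level divides fragments by transcript length and by the number of fragments in the library. One group, labelled wild type and shControl, carried a control short hairpin RNA delivered by lentivirus, and the other, labelled BLACAT3 knockdown and shBLACAT3, a short hairpin RNA delivered in the same way against the long noncoding RNA BLACAT3. Each group had 3 libraries, and all 6 came from cells selected with puromycin. Replicates are numbered in the labels with no word on separate cultures, or on whether a group was 1 stable line, so the spread behind each p-value is that among these libraries and may be technical. The targeted RNA was not analysed here, so the group labels were not checked against its level.

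IFIT proteins are built almost wholly of tetratricopeptide repeats, helical units that stack into a groove, and they are among the genes most strongly induced when a cell senses viral RNA or interferon. IFIT1 binds RNA whose cap lacks methylation of the ribose and keeps it from being translated. IFIT2 binds RNA rich in A and U and promotes cell death, IFIT3 binds IFIT1 and stabilises it, and IFIT5 acts alone and binds RNA ends that carry phosphates. Their promoters hold interferon-stimulated response elements, which are bound by interferon regulatory factors and by complexes that hold IRF9.

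The promoter sequences are shown because the 4 genes were lower together and lie side by side. RefSeq windows of the 250 bases before the transcript start (build GRCh38.p14) were found for 3 of the 4 members, with 2 starts for IFIT3; IFIT2 had no entry. Capitals mark each match of the core of the response element, TTTCNNTTTC, or GAAANNGAAA when read on the other strand. The windows read as follows, from far to near the start.
IFIT1, chr10:89392373-89392622, plus strand: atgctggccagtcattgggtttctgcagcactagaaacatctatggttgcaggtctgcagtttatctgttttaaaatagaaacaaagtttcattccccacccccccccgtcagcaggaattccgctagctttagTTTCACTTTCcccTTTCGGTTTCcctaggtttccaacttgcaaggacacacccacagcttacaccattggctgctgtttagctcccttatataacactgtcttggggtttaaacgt
IFIT3 upstream start, chr10:89327747-89327996, plus strand: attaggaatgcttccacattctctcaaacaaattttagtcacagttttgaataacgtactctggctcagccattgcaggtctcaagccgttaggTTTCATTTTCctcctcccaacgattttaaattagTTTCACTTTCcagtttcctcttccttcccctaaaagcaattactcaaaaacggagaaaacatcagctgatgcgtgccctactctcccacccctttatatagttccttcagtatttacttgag
IFIT3 downstream start, chr10:89332279-89332528, plus strand: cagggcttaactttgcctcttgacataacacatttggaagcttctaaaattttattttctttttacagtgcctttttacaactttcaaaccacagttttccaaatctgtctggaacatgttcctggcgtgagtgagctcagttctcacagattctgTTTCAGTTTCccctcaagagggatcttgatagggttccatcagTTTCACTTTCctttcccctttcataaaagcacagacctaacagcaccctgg
IFIT5, chr10:89414318-89414567, plus strand: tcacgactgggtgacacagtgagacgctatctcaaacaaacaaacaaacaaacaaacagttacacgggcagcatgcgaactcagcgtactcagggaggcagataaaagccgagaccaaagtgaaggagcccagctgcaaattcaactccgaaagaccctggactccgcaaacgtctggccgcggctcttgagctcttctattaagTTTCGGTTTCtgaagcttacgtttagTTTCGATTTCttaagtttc

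Each of these windows held 2 matches, all on the strand of the gene and with no overlap between matches. Of all 35116 RefSeq promoter windows of this length, 3.02% held at least 1 match and 0.225% held 2 or more. In IFIT1 the matches began 116 and 103 bases before the start. In IFIT3 they began at 156 and 122 bases before the upstream start and at 94 and 51 bases before the downstream start. In IFIT5 they were nearest to the start, at 45 and 19 bases. The sequence TTTCACTTTC occurred once in the IFIT1 window and once in each IFIT3 window, and the IFIT5 window held TTTCGGTTTC, which IFIT1 also held, and TTTCGATTTC. Such a match is a description of the letters and does not show that a factor binds.

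**Figure D1:**
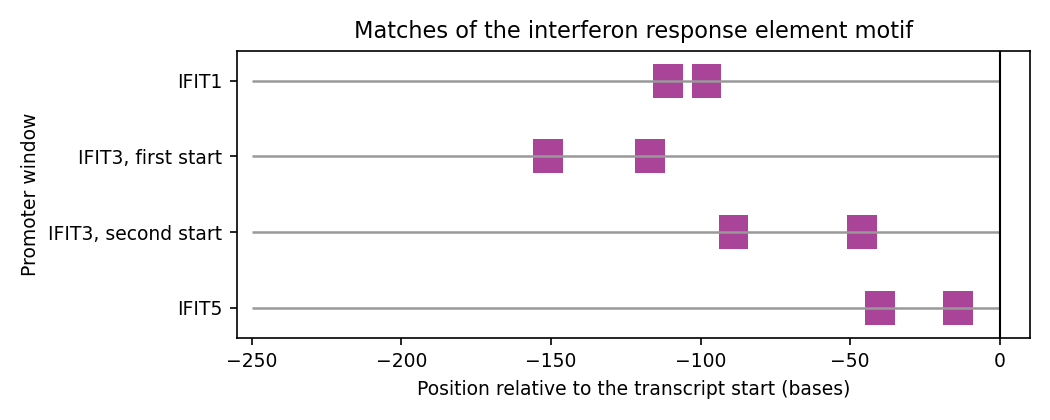
Matches of the motif (filled blocks) in the 4 promoter windows, by position in bases relative to the transcript start at 0 (vertical line). Each window holds 2 matches, and those of IFIT5, at 45 and 19 bases before the start, lie nearest to it.

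All 4 IFIT genes fell in shBLACAT3 cells, but by very different amounts. IFIT1 fell to 1.37% of its shControl mean, IFIT2 to 1.97% and IFIT3 to 5.66%, whereas IFIT5 kept 64.5%. The question was which of the members change when BLACAT3 is knocked down, and it was tested with limma on log2(FPKM + 1) across 10008 genes whose mean reached 1 FPKM, with Benjamini-Hochberg adjustment over all of them. A gene is called below when its adjusted p was under 0.05. Of all genes tested, 9.37% were called in either direction, 6.8% lower and 2.57% higher, against 4 of 4 IFIT genes lower. In bulk RNA, fewer cells that express a gene and less RNA per cell cannot be told apart.

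IFIT1 stood at 59.4, 59.2 and 58.9 FPKM in shControl replicates 1, 2 and 3 and at 0.586, 0.984 and 0.854 FPKM in shBLACAT3 replicates 1, 2 and 3. Every knockdown library was thus under 1 FPKM, and the mean level was 73.2 times higher in shControl cells. On the log2(FPKM + 1) scale, which understates the change of low values, the difference was -5.06 (SE 0.10, 95% interval -5.29 to -4.83, adjusted p 8.58e-07 in limma). IFIT1 lay above the filter of 1 FPKM only through shControl cells, while the other 3 members had means over 1 FPKM in both groups.

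IFIT2 stood at 92.9, 93.2 and 88.03 FPKM in the shControl libraries and at 1.81, 1.88 and 1.72 FPKM in the shBLACAT3 libraries, in replicate order. The knockdown libraries lay close together (1.80 ± 0.08 FPKM, SD, n = 3), and the shControl mean was 50.7 times higher. The log2 difference was -5.04 (SE 0.06, 95% interval -5.19 to -4.90, adjusted p 2.80e-07 in limma), the smallest adjusted p of the 4 members.

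IFIT3 stood at 90.8, 87.5 and 85.0 FPKM in the shControl libraries and at 4.75, 5.57 and 4.58 FPKM in the shBLACAT3 libraries, in replicate order. The groups were far apart, with a mean 17.7 times higher in shControl cells. The log2 difference was -3.90 (SE 0.08, 95% interval -4.09 to -3.71, adjusted p 1.22e-06 in limma). Among the 10008 tested genes ordered from the lowest log2 fold change, IFIT1, IFIT2 and IFIT3 took places 3, 4 and 9, which became 7, 9 and 21 with 0.1 in place of 1 added to FPKM and 14, 18 and 27 by the plain ratio of group means.

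IFIT5 stood at 11.8, 13.2 and 9.84 FPKM in the shControl libraries and at 7.22, 8.44 and 6.83 FPKM in the shBLACAT3 libraries, in replicate order. The highest knockdown library was below the lowest shControl library, so these groups did not overlap either, as in 18.6% of all tested genes, counting those lower in shBLACAT3 cells. The shControl mean was 1.55 times higher, and the log2 difference was -0.57 (SE 0.12, 95% interval -0.86 to -0.27, adjusted p 0.037 in limma), at place 443. The call of IFIT5 was lost without shControl replicate 1 or 2 (adjusted p 0.13 and 0.11) or shBLACAT3 replicate 1 or 3 (0.11 and 0.066). IFIT1, IFIT2 and IFIT3 were called in each of the 14 other settings tried.

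**Figure D2:**
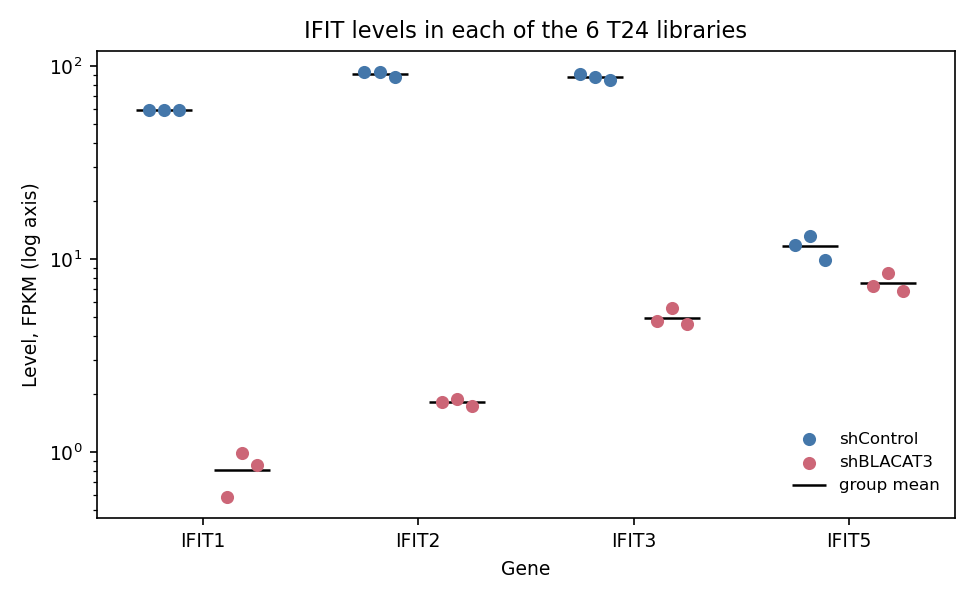
FPKM (log axis) of the 4 IFIT genes in the 3 shControl and the 3 shBLACAT3 libraries, each point 1 library (replicates 1 to 3 from left to right) and each bar a group mean. IFIT1 goes from 58.9 to 59.4 FPKM down to 0.586 to 0.984, and IFIT5 from 9.84 to 13.2 down to 6.83 to 8.44.

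The order of the members turned over between the groups. FPKM is scaled by transcript length, so levels can be set side by side between genes. In shControl cells IFIT2 (91.4 ± 2.90 FPKM, SD, n = 3) was followed by IFIT3 (87.8 ± 2.94), IFIT1 (59.2 ± 0.25) and IFIT5 (11.6 ± 1.70). The libraries of IFIT2 and IFIT3 overlapped (88.03 to 93.2 and 85.0 to 90.8 FPKM), although IFIT2 was the higher in each of the 3 libraries, by 0.032 to 0.091 in log2 FPKM. In shBLACAT3 cells IFIT5 was the most abundant (7.497 ± 0.84 FPKM, SD, n = 3), followed by IFIT3 (4.97 ± 0.53), IFIT2 (1.80 ± 0.08) and IFIT1 (0.808 ± 0.20), and no libraries of neighbours overlapped. Both genes of a pair were read in the same 3 libraries, so neighbours were compared by their log2 ratio within each library. The exact two-sided paired permutation p was 0.25 for each of the 6 neighbouring pairs, the smallest that 3 libraries can give, so no order of levels could pass a test here. Among all tested genes ordered from the highest level, IFIT2 went from place 301 in shControl to 8843 in shBLACAT3 cells, IFIT3 from 317 to 6155, IFIT1 from 555 to 9899 and IFIT5 from 3473 to 4825.

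The summed level of the family was 255, 253 and 242 FPKM in the shControl libraries and 14.4, 16.9 and 14.0 FPKM in the shBLACAT3 libraries, 16.6 times lower on average. IFIT5 made up 4.64%, 5.23% and 4.07% of this sum in the shControl libraries and 50.2%, 50.02% and 48.9% in the shBLACAT3 libraries. Its share thus rose although its level fell. The share of IFIT1 was 23.7% ± 0.59 and 5.34% ± 1.10, and that of IFIT2 was 36.6% ± 0.23 and 12.02% ± 0.78 (SD, n = 3 per group). IFIT3 had nearly the same share in both groups, 35.1% ± 0.53 and 32.9% ± 0.17, though the libraries did not overlap. For each of the 4 shares and for the sum the exact two-sided permutation p was 0.10, the smallest possible here.

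**Figure D3:**
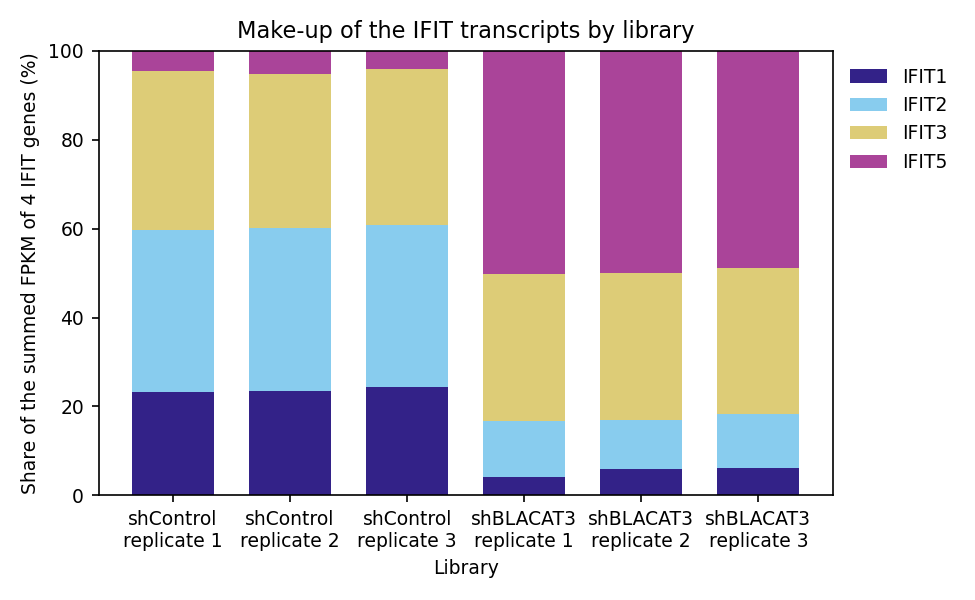
Share (%) of each member in the summed FPKM of the 4 IFIT genes, 1 bar per library. IFIT5 takes 4.07% to 5.23% in the shControl libraries and 48.9% to 50.2% in the shBLACAT3 libraries, while IFIT1 and IFIT2 shrink.

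The difference in fold change between members was tested from their log2 ratio within each library, for all 6 pairs. IFIT1 fell further than IFIT5 by 4.49 (SE 0.14), IFIT2 further than IFIT5 by 4.47 (SE 0.11) and IFIT3 further than IFIT5 by 3.33 (SE 0.10) on the log2 scale. IFIT1 and IFIT2 also fell further than IFIT3, by 1.16 (SE 0.08) and 1.14 (SE 0.05). In these 5 pairs the ratios of the shControl and shBLACAT3 libraries did not overlap, with an exact two-sided permutation p of 0.10 each, the smallest possible, and 0.12 after adjustment over the 6 pairs. IFIT1 and IFIT2 differed by 0.02 (SE 0.10, exact permutation p 1), a value whose sign turned without shControl replicate 3 or shBLACAT3 replicate 1. With 0.1 in place of 1 added to FPKM, IFIT1 fell further than IFIT2 by 0.47 (SE 0.20). The exact two-sided permutation p of that difference was 0.10, the smallest possible. On that scale IFIT1 and IFIT2 fell further than IFIT3 by 1.93 and 1.47. Against IFIT5, IFIT1 fell further by 5.43, IFIT2 by 4.96 and IFIT3 by 3.50. The sizes of these gaps thus depend on the value added. Among the shBLACAT3 libraries, replicate 2 had the highest level of each of the 4 members.

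The members lie on chromosome 10 in the order IFIT2, IFIT3, IFIT1B, IFIT1 and IFIT5 in RefSeq (GRCh38.p14), and IFIT1B was not analysed here. The deposited table names no genome build, so no gene coordinates are given. Most genes on either side of the cluster were not called, as was true of most genes tested (9.37% called). Of 12 flanking genes listed, 8 were tested. Of these, 1 was lower (12.5%, against 6.8% of all genes) and 1 higher (12.5%, against 2.57%). Their median log2 fold change was -0.02, against -0.0025 for all tested genes. LIPA, a lysosomal lipase gene, borders IFIT2 and in GENCODE 29 runs across IFIT2, IFIT3 and IFIT1 on the opposite strand. It stood at 22.9, 19.9 and 23.1 FPKM in shControl and 19.5, 19.98 and 20.5 FPKM in shBLACAT3 libraries (log2 difference -0.13, SE 0.07, adjusted p 0.33 in limma). Beyond LIPA, FAS, a death receptor, fell from 12.5 ± 0.85 to 6.07 ± 2.12 FPKM (SD, n = 3, adjusted p 0.041 in limma), a call lost with any shControl library or shBLACAT3 replicate 3 left out and with the replicate block (adjusted p 0.055 to 0.14). On the IFIT5 side, KIF20B, a mitotic kinesin, stood at 14.8 and 22.7 FPKM (adjusted p 0.23 in limma). ANKRD1, a transcriptional cofactor gene farther along, was the flanking gene that rose, from 1.65 ± 0.12 to 16.3 ± 1.51 FPKM (adjusted p 1.60e-05 in limma).

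**Figure D4:**
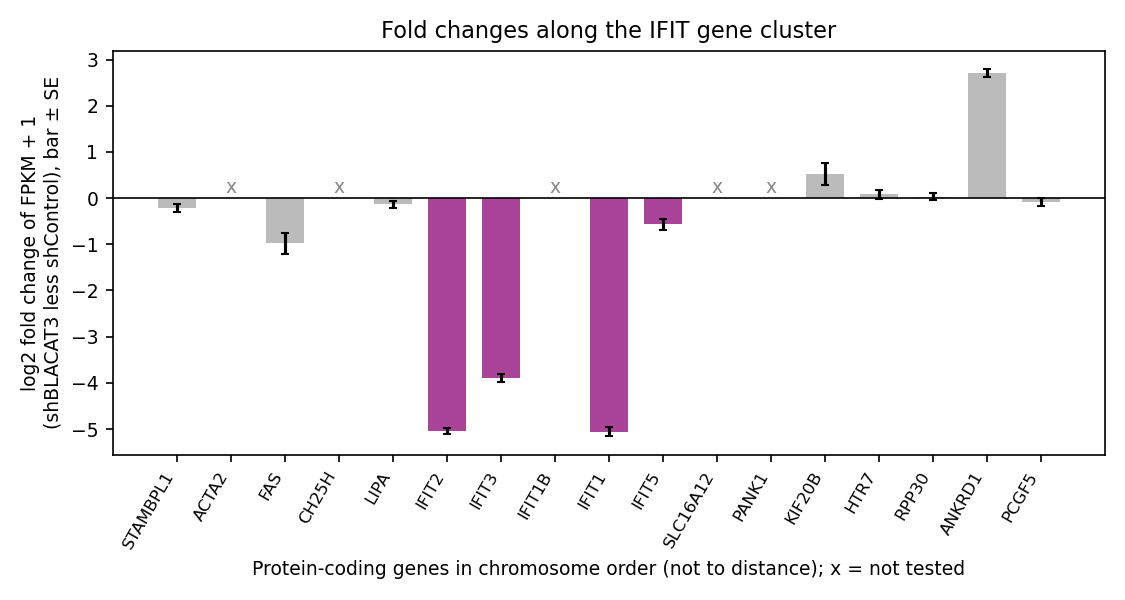
Log2 fold change of FPKM + 1 (shBLACAT3 less shControl, bars with SE) of protein-coding genes in chromosome order, not drawn to distance; IFIT genes are coloured and x marks genes not tested. The 3 deep bars are IFIT2, IFIT3 and IFIT1 at -5.04, -3.90 and -5.06, between LIPA at -0.13 and IFIT5 at -0.57.

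The transcripts of the members shared 0 words of 50 bases with one another. Of the 50-base words in GENCODE 29 transcripts of IFIT1, 1.02% also occurred in another gene, chiefly IFIT1B, and of those of IFIT3 2.48%. IFIT5 had 0 shared words. IFIT2 shared 7.495% of its words, all of which occur in a noncoding transcript that overlaps it on the same strand, and 65 of its 4101 exonic bases also lie in exons of LIPA. The exons of IFIT1 and IFIT3 had 0 bases in common with those of LIPA. The strand setting of the authors' counting is not given in the sources used here, so reads of overlapping exons cannot be told apart.

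Among the genes that lead from viral RNA to IFIT induction, the sensors IFIH1, RIGI and TLR3 fell. Of 11 tested sensors and adaptors, 3 were lower (27.3%, against 6.8% of all genes) and 0 higher, with a median log2 fold change of -0.09. IFIH1, which senses long double-stranded RNA, fell from 32.2 ± 0.93 to 6.07 ± 0.59 FPKM (SD, n = 3, adjusted p 1.93e-05 in limma). RIGI, which senses RNA ends that carry phosphates, fell from 47.6 ± 3.02 to 13.5 ± 1.03 FPKM (adjusted p 7.45e-05 in limma). TLR3, an endosomal sensor, fell from 2.94 ± 0.08 to 1.87 ± 0.34 FPKM (adjusted p 0.040 in limma), a call that was lost under 8 of the 13 other settings in which it was tested. IFIH1 and RIGI are themselves induced by interferon.

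The interferon genes measured were near 0 in shBLACAT3 cells. IFNB1, which encodes interferon beta, stood at 2.54, 2.31 and 2.56 FPKM in the shControl libraries, and in the shBLACAT3 libraries it was listed at 0, 0.145 and 0. IFNL1, a type III interferon gene, stood at 6.41, 7.23 and 6.18 FPKM in shControl and was listed at 0 in all 3 shBLACAT3 libraries. IFNL2 and IFNL3, near-identical genes whose reads cannot be cleanly split, had shControl means of 3.24 ± 0.87 and 3.16 ± 0.56 FPKM (SD, n = 3), and in shBLACAT3 they were listed at 0 except for IFNL3 at 0.0752 in replicate 1. These 4 genes passed the filter only through the shControl libraries, so their being lower is no independent count.

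Factors that act on the response elements had log2 differences no lower than -0.72. Of 8 tested interferon regulatory factors and STATs, 2 were lower (25%, against 6.8% of all genes) and 0 higher, with a median log2 fold change of -0.35. IRF1, an activator of interferon-stimulated genes, fell from 5.45 ± 0.47 to 2.91 ± 0.14 FPKM (SD, n = 3, adjusted p 0.0040 in limma). IRF7, an amplifier of the interferon response, fell from 3.80 ± 0.49 to 2.44 ± 0.35 FPKM (adjusted p 0.048 in limma), a call lost under 8 of 13 other settings. STAT2 (3.35 ± 0.27 and 3.002 ± 0.63 FPKM), IRF9 (5.57 ± 1.84 and 3.56 ± 1.21 FPKM) and IRF3 (4.804 ± 0.73 and 3.98 ± 0.76 FPKM, SD, n = 3) did not pass (adjusted p 0.56, 0.30 and 0.38 in limma).

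Of 9 interferon receptors and Janus kinases 1 was lower (11.1%, near the 6.8% of all genes) and 0 higher, with a median log2 fold change of -0.08. The lower gene was IFNLR1, the receptor chain for type III interferon, at 2.14 ± 0.36 and 1.21 ± 0.08 FPKM (SD, n = 3, adjusted p 0.031 in limma), a call lost under 6 of 13 other settings. Of 5 feedback inhibitors 2 were lower (40%, against 6.8% of all genes) and 0 higher (against 2.57%). USP18, which removes ISG15 from proteins and blocks the interferon receptor, fell from 12.7 ± 1.16 to 6.31 ± 0.15 FPKM (SD, n = 3, adjusted p 0.0015 in limma), and SOCS3, an inhibitor of Janus kinases, from 17.3 ± 1.74 to 10.7 ± 1.02 FPKM (adjusted p 0.012 in limma). SOCS1 (3.41 and 3.41 FPKM), PIAS1 (3.19 and 3.71 FPKM) and PTPN11 (29.7 and 38.4 FPKM) did not pass (adjusted p 0.94, 0.40 and 0.059 in limma).

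Other interferon-stimulated genes spanned the whole range between IFIT1 and IFIT5. Of 34 tested, 29 were lower (85.3%, against 6.8% of all genes) and 0 higher (against 2.57%). Their median log2 fold change was -1.07, and 7 of the 34 passed the filter only through the shControl libraries. The list was made with earlier results of these libraries known and is no independent evidence of direction. With 1 added to FPKM, OASL, at -5.25 (SE 0.08), had a lower log2 fold change than IFIT1 and IFIT2, and 4 of the 34 lay below IFIT3, namely OASL, IFI44, RSAD2 and ISG15. This order depends on the value added: with 0.1 RSAD2 also lay below IFIT1 and IFIT2 (-7.40 against -6.05 and -5.59) and OAS2 below IFIT3, and by the plain ratio of group means 3 of the 34 lay below IFIT1 (OASL, RSAD2 and OAS2) and 6 below IFIT3, BST2 among them. On each of these scales 28 of the 34 lay below IFIT5. OASL, a relative of the oligoadenylate synthetases that enhances RIGI signalling, stood at 38.9 ± 3.21 and 0.0480 ± 0.02 FPKM (SD, n = 3). RSAD2, the antiviral enzyme viperin, stood at 19.1 ± 1.02 FPKM in shControl and at 0.0316, 0 and 0.0103 in the shBLACAT3 libraries.

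Profiles most like each member were taken as the smallest root mean square difference of log2(FPKM + 1), each gene less its own shControl mean, over the 6 libraries and among 9908 protein-coding genes. The nearest gene to IFIT1 was IFIT2 (0.10) and the reverse, followed for both by OASL (0.18 and 0.16) and by IFI44, a gene of unclear function (0.39 and 0.35). The nearest to IFIT3 was ISG15, a ubiquitin-like modifier (0.11), which stood at 95.8 ± 10.0 and 5.13 ± 0.37 FPKM (SD, n = 3), next to 87.8 and 4.97 for IFIT3. RSAD2 (0.30) and SLPI, a secreted protease inhibitor (0.33), came next. The genes nearest to IFIT5 were STEAP1, a membrane protein (0.04), ANTXR2, a receptor for anthrax toxin (0.05), and PRRG4, a further membrane protein (0.05). None of them was in the interferon lists used here, where DTX3L (-0.59) and OAS3 (-0.60) had log2 fold changes near the -0.57 of IFIT5. Those of STEAP1, ANTXR2 and PRRG4 were -0.56, -0.60 and -0.61. ANTXR2 and PRRG4 passed (adjusted p 0.027 and 0.016 in limma) while STEAP1 did not (0.059). The call of ANTXR2 was lost under 4 and that of PRRG4 under 3 of 13 other settings, and STEAP1 was called under 1 of 13. With 2 groups, such likeness mostly measures the size of the fold change of FPKM + 1, and adding 1 flattens values near 0. By the plain ratio of group means, RSAD2 was 1367 times and SLPI 100 times higher in shControl cells. IFIT3 was 17.7 times and ISG15 18.7 times higher. OASL was 809 times and IFI44 38.3 times higher, against 73.2 for IFIT1 and 50.7 for IFIT2. The nearness of RSAD2, SLPI and OASL thus depends on the value added, and so does that between IFIT1 and IFIT2. With 0.1 added, the log2 fold changes of IFIT1 and IFIT2 were -6.05 and -5.59, and that of IFNL1 was -6.06. The nearest genes were not sought again with 0.1.

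Genes that act on the RNA cap, and those of a translation factor bound by IFIT proteins, were not called lower. Of 7 genes that act on the mRNA cap, 0 passed in limma in either direction, against 9.37% of all genes tested. Among so few genes a count of 0 is near that share and says little about them. In this list 1 gene had an unadjusted p under 0.05. CMTR1, which methylates the ribose that IFIT1 senses, stood at 6.74 ± 0.48 and 6.40 ± 0.45 FPKM, and RNMT, which methylates the cap base, at 3.42 ± 0.18 and 4.73 ± 1.57 FPKM (SD, n = 3, adjusted p 0.67 and 0.35 in limma). PCIF1, a cap-specific adenosine methyltransferase, stood at 5.98 and 7.38 FPKM, and CMTR2, a further ribose methyltransferase, at 7.81 and 9.91 FPKM (adjusted p 0.077 and 0.20 in limma). Of 13 subunits of the initiation factor eIF3, which IFIT1 and IFIT2 bind, 3 rose (23.1%, against 2.57% of all genes) and 0 fell (against 6.8%). These were EIF3A, from 65.1 ± 3.96 to 92.4 ± 11.2 FPKM, EIF3C, from 36.5 ± 0.28 to 46.6 ± 2.24, and EIF3E, from 66.6 ± 4.88 to 86.2 ± 5.18 FPKM (SD, n = 3, adjusted p 0.030, 0.015 and 0.031 in limma). The count fell to 0 without shControl replicate 1 or shBLACAT3 replicate 1 and to 1 without shControl replicate 2 or 3, and EIF3C has a near-identical copy, so its value is uncertain.

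**Figure D5:**
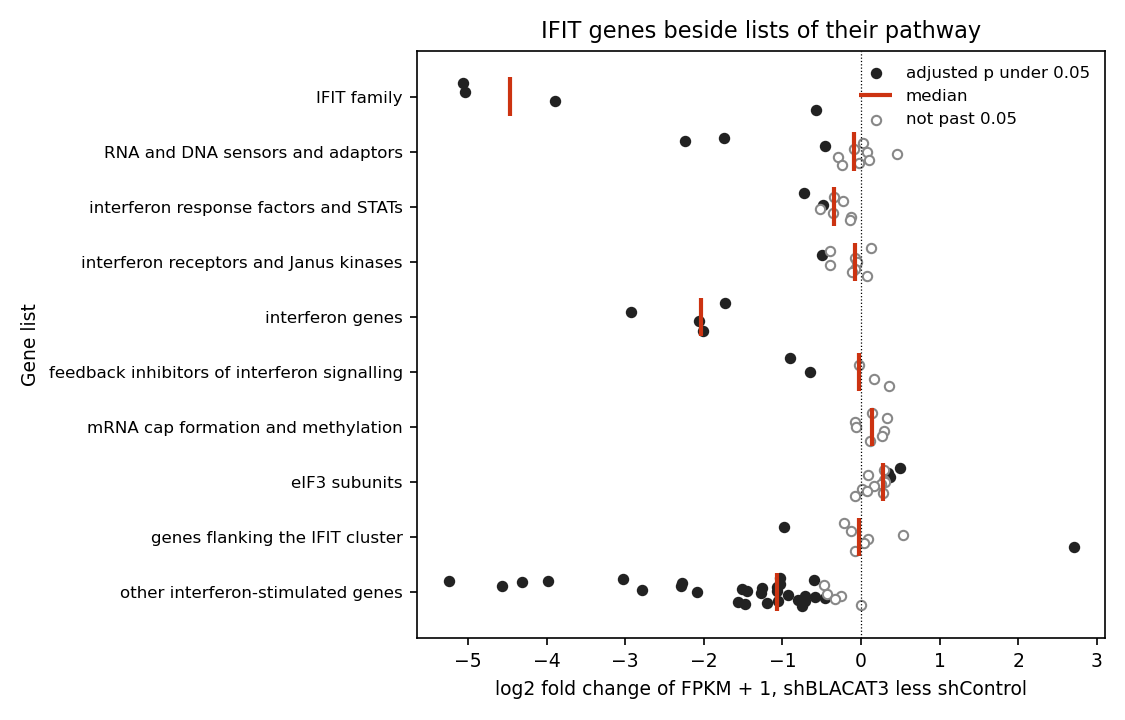
Log2 fold change of FPKM + 1 (shBLACAT3 less shControl) of each tested gene, by list; filled points passed an adjusted p under 0.05 in limma, open points did not, and the vertical bar is the list's median. The IFIT genes at -5.06, -5.04 and -3.90 lie at the low end of the interferon-stimulated genes, IFIT5 at -0.57 lies near their upper end, and the eIF3 median is at 0.28.

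The response element motif was also counted in the promoter windows of other tested genes, over the 250 bases before each start. Among the 31 interferon-stimulated genes of the list that had an entry, 58.1% held a match, against 3.20% of 8223 tested genes. Of tested genes called lower 7.40% held one, of those called higher 2.87% and of those not called 2.91%. Conversely, of 263 tested genes with a match 14.8% were lower, against 6.13% of 7960 with no match, and the median log2 fold changes were -0.03 and -0.0021. The lower genes with a match include IFIT members and genes of that list, which was made with earlier results known. These shares are thus no independent evidence, and they were not taken again without those genes. Of the 5 genes with 3 or more matches, 3 were lower (60%, against 6.8% of all genes), namely HERC5, IFI6 and IFIH1. Most genes with the letters of the motif were not called, and IFIT5 and IFIT1, with 2 matches each, had log2 fold changes of -0.57 and -5.06.

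Depth is unknown because FPKM values hold no counts, and the listed values summed to 211958 to 226953 FPKM per library. Urothelial and simple epithelial markers measured were KRT7, KRT8, KRT18, PPARG and FOXA1, 5 of the 16 listed, with sums of 180 to 211 FPKM in shControl and 124 to 142 FPKM in shBLACAT3 libraries; the uroplakins and the other markers of that list were not analysed here. KRT8 fell from 60.7 ± 4.78 to 22.1 ± 2.41 FPKM and KRT18 from 112 ± 15.0 to 74.2 ± 5.19 FPKM (SD, n = 3, adjusted p 0.00039 and 0.022 in limma). KRT7 (19.97 ± 5.62 and 31.98 ± 3.45 FPKM), PPARG (3.77 ± 0.43 and 4.71 ± 0.31) and FOXA1 (2.53 ± 0.29 and 1.88 ± 0.10) did not pass (adjusted p 0.097, 0.15 and 0.099 in limma), with higher shBLACAT3 means for KRT7 and PPARG. The part of these markers in the IFIT result was not tested. Of 12 leukocyte markers only CD68 was measured, at no more than 1.21 FPKM, and 0 of 6 endothelial markers.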

How the data were processed

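RNA was measured in 6 T24 libraries, 3 shControl and 3 shBLACAT3 by their titles. The submitters' processing notes name cutadapt, HISAT2 2.1.0 and StringTie; the sources used here give no build, annotation or strand setting. No unit stands in the header, and the deposited values were taken to be FPKM because they were not whole, summed to different totals and came from StringTie. These reasons do not settle the unit, because the table does not hold every gene and its totals are partial. Columns headed NC were read as shControl and SH as shBLACAT3. Of 11081 rows, 11007 matched a symbol by identifier, and rows of 2 shared symbols were summed. The higher group mean was at least 0.5 in every row, so genes under it in both were not analysed here. The 10008 genes whose mean reached 1 FPKM entered limma 3.58.1 (R 4.3.3) as log2(FPKM + 1), with a mean-variance trend and no covariate. Single ratios and shares were tested by exact permutation in scipy 1.17.1. The members, lists and tests were chosen with earlier results of these data known. Named genes were the members, genes fixed by name, from each list up to 4 called members with the largest change (the 2 with the smallest p where none passed, and all of lists of 5 or fewer), and the 3 genes nearest each member; 1 gene of these is not reported here. Alternatives were the replicate block, a pseudocount of 0.1, no filter, a filter of 5 FPKM, median scaling, quantile normalization, no trend, array weights and leaving out each library.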

Additional observations from a re-analysis of the deposited data

How the results depend on the processing

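IFIT1, IFIT2 and IFIT3 were lower and called in all 14 other settings, with log2 fold changes of -6.05 to -4.97, -5.59 to -4.99 and -4.12 to -3.85. IFIT5 was lower in all of them, was called in 10 (adjusted p 0.030 to 0.13 over all settings), and ranged from -0.67 to -0.48 with a library left out. The difference between IFIT1 and IFIT2 ranged from -0.071 to 0.073 with a library left out, and turned to 0.0028 without shControl replicate 3 and to 0.073 without shBLACAT3 replicate 1. That of the other 5 pairs kept its direction. Numbers were not taken to pair the libraries: same-numbered libraries deviated together with correlations of 0.10, 0.12 and 0.09 across genes, though each of the 6 correlated best with its own number. With the replicate block 612 of all genes were called instead of 938, 451 lower and 161 higher, while receptors and flanking genes had 0 lower and feedback inhibitors 1 higher; the 4 IFIT calls held. With a filter of 5 FPKM 535 genes were called, 341 of them lower, and 0 factors and STATs, 0 receptors, 0 interferon genes and 15 other interferon-stimulated genes were lower, since fewer were tested. With no filter 4 factors and STATs were lower, and with quantile normalization 1. With median scaling 2 receptors were lower, and 1 feedback inhibitor was higher, as with array weights (1). SOCS1 turned to 0.024 with quantile normalization, to 0.035 with array weights and to 0.18 without shBLACAT3 replicate 2, and ranged from -0.16 to 0.18 with a library left out.

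With a library left out, the count of all genes called was 357 (without shControl replicate 1) to 1339 (without shBLACAT3 replicate 3), 276 to 753 of them lower and 81 to 586 higher. It left 1 to 2 factors and STATs, 0 to 1 receptors and 0 to 1 flanking genes lower, and 0 to 1 sensors, 0 to 1 feedback inhibitors, 0 to 2 cap genes, 0 to 3 eIF3 subunits and 1 to 2 flanking genes higher. The cause of these changes was not tested, and the unknown depth limits how low an IFIT1 level can be read.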
